A study of Mus musculus with 8 samples.

Results

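Cc2d2a, Itga9, Col27a1, Rnf144a, Man2b2 and Utf1 are 6 genes whose newly made RNA fell strongly when CTCF was degraded with auxin in mouse embryonic stem cells. They were picked by name because they fall with the auxin indole-3-acetic acid (IAA) in the control line. They make up 6 of the 16940 genes listed in the deposited table and 6 of the 15818 genes that had a mean of at least 10 normalised reads over the 8 libraries and entered the fit; all 6 members passed that filter. Since the control libraries with and without IAA chose them, their fall is given as a description and is not tested, and the same holds for any comparison that uses those libraries.

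The study used TT-seq, in which cells receive a short pulse of 4-thiouridine (400 µM for 15 min) and only labelled RNA is sequenced, so the values follow transcription more closely than those of total RNA do. All 8 libraries came from E14 mouse embryonic stem cells carrying CTCF fused to an auxin-inducible degron (AID), grown without serum in LIF, PD0325901 and CHIR99021. There were 4 groups of 2 replicates: the degron line with a control overexpression construct and no IAA, the same line with IAA for 12 h, the degron line overexpressing wild-type CTCF with IAA for 12 h, and the degron line overexpressing a mutated CTCF with IAA for 12 h. The design asks which transcription lost with endogenous CTCF is restored by an added wild-type or mutated CTCF. The labels name neither the mutation nor the promoter of the constructs, and they do not say whether a line is a clone or a pool, or whether replicates were separate cultures, so the p-values below measure the spread between these libraries only. No library of either rescue line without IAA was analysed here, and neither were the reads of the Ctcf gene itself.

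CTCF is a zinc-finger protein that binds DNA at a long, conserved motif, halts cohesin as it extrudes chromatin loops, and so sets many loop anchors and domain borders. It also binds close to the start of many genes, and loss of CTCF in stem cells is known to change the transcription of a subset of genes within hours. A degron lets the protein be removed quickly, and an added CTCF without the degron stays in the cell when the endogenous protein is destroyed.

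The libraries held 15671114 to 21561141 reads assigned to genes, recovered from the steps of the normalised values, and the control libraries with IAA were the shallowest, at 15671114 and 17187354. Correlations of log2 values were 0.995 to 0.996 between replicates and 0.983 to 0.990 between libraries of different groups. The wild-type replicates differed the most beyond counting error, with a chi-square per degree of freedom of 3.07, while the highest of the other groups was 1.57. The embryonic stem cell label was borne out by its markers, since 6 of 6 were listed with means between 1212 and 15455, and their summed level ran from 35912 to 36279 without IAA, 33831 to 34124 with IAA, 38660 to 40508 with wild-type CTCF and 38029 to 39336 with mutated CTCF. Of the primitive endoderm markers 3 of 6 were listed (Foxa2, Sox17 and Sox7 were not), and their summed level was 186 to 216 without IAA and 262 to 305 with IAA, against 214 to 242 with wild-type and 239 to 246 with mutated CTCF. Of the trophoblast markers 2 of 5 were listed, summing to 804 to 890 with wild-type CTCF and to 547 to 625 in all other libraries. Of the mesoderm markers 2 of 5 were listed, summing to 89.2 to 93.1 with wild-type CTCF, 42.8 to 59.3 with mutated CTCF, 44.0 to 60.7 with IAA and 51.0 to 69.0 without, with Mesp1, Mixl1 and Tbx6 not listed. The neural list had 1 of 4 listed, at 11.8 to 19.2 with wild-type and 3.13 to 5.93 with mutated CTCF, 11.0 to 13.1 with IAA and 5.02 to 9.48 without, and of the fibroblast markers 0 of 5 were listed. The trophoblast, mesoderm and neural sums were thus higher in both wild-type than in both mutated libraries, the direction reported below for Cc2d2a, Col27a1 and the collagen list. Each of these sums rests largely on 1 gene. The listed means were 3.92 and 643 for trophoblast and 5.72 and 57.9 for mesoderm, where the higher is Eomes, 128 kb upstream of Itga9. The part of the marker levels in the values of the members and lists was not tested. In bulk libraries, fewer cells transcribing a gene and less RNA per cell cannot be told apart.

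The 6 genes lie on 5 chromosomes, with Cc2d2a and Man2b2 6.83 Mb apart on chromosome 5, and no other listed gene overlaps any of them. By gene length Itga9 is longer than 96.4% of the tested genes with an annotated length, Col27a1 than 88.4%, Rnf144a than 87.6%, Cc2d2a than 80.9%, Man2b2 than 49.7% and Utf1 than 3.66%. The members therefore have neither a chromosome nor a size class in common. Levels are not compared between genes below, because the counting feature and its length are not given in the sources used here.

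The promoters are shown because CTCF often binds next to the start of genes that respond to it. RefSeq windows on GRCm38.p6 reach from 250 bases before to 50 bases after a start, and all 6 members had one; the 160 bases before the start are printed 5′ to 3′ on the gene's strand, with capitals marking either of 2 motifs, the CTCF core consensus with its variable bases left free (the longer motif) or AGGGGGC (the shorter motif), searched on both strands. The second motif was chosen after the windows had been seen, and so was a further Itga9 window at the start of its longest RefSeq transcript, because the tabulated Itga9 window lies inside the gene. The tabulated Col27a1 window also lies inside the gene as GENCODE annotates it, downstream of the start given below, and no other window was taken for it. Shown are the windows with a match and, for contrast, that of Cc2d2a, the member that fell the most and has none. The regions are chr9:118606549-118606708 (plus strand) for Itga9 at its longest transcript, chr4:63215252-63215411 (plus) for Col27a1, chr12:26415263-26415422 (minus) for Rnf144a, chr7:139943696-139943855 (plus) for Utf1 and chr5:43662219-43662378 (plus) for Cc2d2a.
Itga9: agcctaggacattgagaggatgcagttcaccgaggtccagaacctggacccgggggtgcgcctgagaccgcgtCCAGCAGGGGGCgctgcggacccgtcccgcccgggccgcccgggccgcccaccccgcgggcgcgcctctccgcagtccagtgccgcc
Col27a1: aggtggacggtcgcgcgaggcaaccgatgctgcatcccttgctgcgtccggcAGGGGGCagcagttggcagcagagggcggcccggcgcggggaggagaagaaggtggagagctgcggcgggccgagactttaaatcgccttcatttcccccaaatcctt
Rnf144a: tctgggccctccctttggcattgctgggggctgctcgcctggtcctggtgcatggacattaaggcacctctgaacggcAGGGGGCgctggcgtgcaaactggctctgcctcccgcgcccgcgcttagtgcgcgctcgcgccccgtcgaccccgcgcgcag
Utf1: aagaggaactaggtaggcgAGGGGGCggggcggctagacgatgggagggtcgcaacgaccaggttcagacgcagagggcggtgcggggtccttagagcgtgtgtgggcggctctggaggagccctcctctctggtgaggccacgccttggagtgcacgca
Cc2d2a: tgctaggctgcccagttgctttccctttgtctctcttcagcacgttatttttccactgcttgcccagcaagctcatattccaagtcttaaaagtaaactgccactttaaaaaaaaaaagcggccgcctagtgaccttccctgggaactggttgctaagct

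The longer motif was found in 0 of the 6 tabulated windows, beside 2.43% of all 32851 RefSeq promoter windows and 2.77% of the 11349 windows of tested genes. It occurred once at the start of the longest Itga9 transcript, with its first base at -87 relative to that start. The shorter motif, which overlaps the longer one there, began at -82 in the same window, at -108 in Col27a1, at -82 in Rnf144a with another match on the other strand at -195, and at -141 in Utf1. It is common, being present in 10.6% of all windows and 16.3% of those of tested genes. CCCTC, the letters for which CTCF is named, was present in 5 of 6 tabulated windows, all but that of Cc2d2a, beside 66.0% of all windows and 74.4% of those of tested genes. The CpG count per 300 bases was 3 in Cc2d2a, 10 in the tabulated Itga9 window and 27 at its longest transcript, 18 in Col27a1, 25 in Rnf144a, 22 in Man2b2 and 17 in Utf1, against a median of 20 (quartiles 11 and 28) over tested genes. These matches describe letters only, since no binding data were used, and windows without a match say nothing of binding by CTCF.

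Cc2d2a (ENSMUSG00000039765.15, chr5:43662346-43740972, plus strand, 78.6 kb) encodes a protein of the ciliary transition zone, the gate at the base of the primary cilium, and is mutated in Joubert and Meckel syndromes. Its normalised read counts were 381 and 391 without IAA, 16.7 and 25.3 with IAA, 219 and 236 with wild-type CTCF and 135 and 147 with mutated CTCF. The 4 groups did not overlap, and each rescue line lay between the control libraries with and without IAA. The IAA libraries held 14 and 23 reads of the gene, 37 together (exact Poisson 95% interval 26.1 to 51.0, counting error only), so it was reduced to a low level and not to 0. The log2 difference with IAA was -4.17 (SE 0.15, on the log2(value + 1) scale), the lowest of all 15818 tested genes. The mean with IAA was 5.43% ± 1.58 (SD, n = 2) of the untreated mean, against 58.9% ± 3.27 in the wild-type line and 36.5% ± 2.29 in the mutated line. Cc2d2a was the member with the deepest fall, and of that drop 56.5% was regained with wild-type and 32.9% with mutated CTCF.

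Itga9 (ENSMUSG00000039115.13, chr9:118606690-118901003, plus strand, 294 kb) encodes the integrin subunit alpha 9, which pairs with beta 1 as a receptor for tenascin C and osteopontin. For this gene the normalised read counts were 133 and 134 without IAA, 10.7 and 11.0 with IAA, 62.9 and 37.4 with wild-type CTCF and 34.5 and 40.5 with mutated CTCF. The rescue lines overlapped each other, and the wild-type replicates lay further apart than those of any other group. The log2 difference with IAA was -3.51 (SE 0.23), from 9 and 10 reads in the IAA libraries. The means were 8.12% ± 0.147 (SD, n = 2) of the untreated mean with IAA, 37.5% ± 13.5 with wild-type and 28.1% ± 3.20 with mutated CTCF. Both rescue lines stayed below every untreated library by a wide margin, with log2 differences from them of -1.44 and -1.81.

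Col27a1 (ENSMUSG00000045672.15, chr4:63214004-63334991, plus strand, 121 kb) encodes a fibrillar collagen chain known from cartilage. Its normalised read counts were 97.8 and 90.5 without IAA, 8.34 and 6.60 with IAA, 90.0 and 81.3 with wild-type CTCF and 38.7 and 31.6 with mutated CTCF. In the wild-type line the gene was next to its untreated level, with the higher rescue replicate just under the lower untreated one, while the mutated line stayed well apart from both. The IAA libraries held 7 and 6 reads, 13 together (exact Poisson 95% interval 6.92 to 22.2). The log2 difference with IAA was -3.50 (SE 0.23), and the means were 7.93% ± 1.31 (SD, n = 2) of the untreated mean with IAA, 91.0% ± 6.56 with wild-type and 37.3% ± 5.27 with mutated CTCF. Of the drop, 90.2% was regained with wild-type CTCF, the highest share of the 6 members, against 31.9% with mutated CTCF.

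Rnf144a (ENSMUSG00000020642.13, chr12:26300964-26415254, minus strand, 114 kb) encodes a RING-between-RING E3 ubiquitin ligase. It had normalised read counts of 155 and 146 without IAA, 9.53 and 16.5 with IAA, 103 and 126 with wild-type CTCF and 81.5 and 109.7 with mutated CTCF. The rescue lines overlapped, and the means of both lay nearer to the untreated mean than to that with IAA. The log2 difference with IAA was -3.48 (SE 0.20), with 8 and 15 reads in the IAA libraries. The means were 8.67% ± 3.28 (SD, n = 2) of the untreated mean with IAA, 76.4% ± 10.9 with wild-type and 63.7% ± 13.3 with mutated CTCF.

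Man2b2 (ENSMUSG00000029119.9, chr5:36806921-36830653, minus strand, 23.7 kb) encodes an alpha-mannosidase that trims the glycans of glycoproteins during their breakdown. The normalised read counts were 118 and 95.7 without IAA, 11.9 and 15.4 with IAA, 77.8 and 73.8 with wild-type CTCF and 54.3 and 84.0 with mutated CTCF. The wild-type libraries lay between the mutated ones, whose replicates were far apart. The log2 difference with IAA was -2.88 (SE 0.21), with 10 and 14 reads in the IAA libraries. The means were 12.8% ± 2.31 (SD, n = 2) of the untreated mean with IAA, 71.0% ± 2.64 with wild-type and 64.8% ± 19.7 with mutated CTCF.

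Utf1 (ENSMUSG00000047751.9, chr7:139943789-139945112, plus strand, 1.32 kb) encodes a chromatin-bound protein of undifferentiated embryonic stem cells. Its normalised read counts were 52.7 and 43.1 without IAA, 7.15 and 12.1 with IAA, 12.2 and 18.2 with wild-type CTCF and 17.8 and 12.9 with mutated CTCF. The lowest rescue library touched the higher IAA library, and the rescue lines overlapped. The log2 difference with IAA was -2.24 (SE 0.33), and the means were 20.1% ± 7.31 (SD, n = 2) of the untreated mean with IAA, 31.8% ± 8.78 with wild-type and 32.0% ± 7.25 with mutated CTCF. Of the drop, 14.6% was regained with wild-type and 14.9% with mutated CTCF, from 14 and 17 reads and from 17 and 13 reads. These shares depend on single libraries. With a replicate left out, the share of the untreated level ran from 14.9% to 25.3% with IAA. It ran from 25.6% to 38.0% with wild-type and from 26.8% to 37.1% with mutated CTCF. The description of these genes as regained is thus not borne out for Utf1, which stayed near its level with IAA in both rescue lines, and the word silenced fits none of the 6, since each kept 6 to 23 reads in every IAA library.

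**Figure D1:**
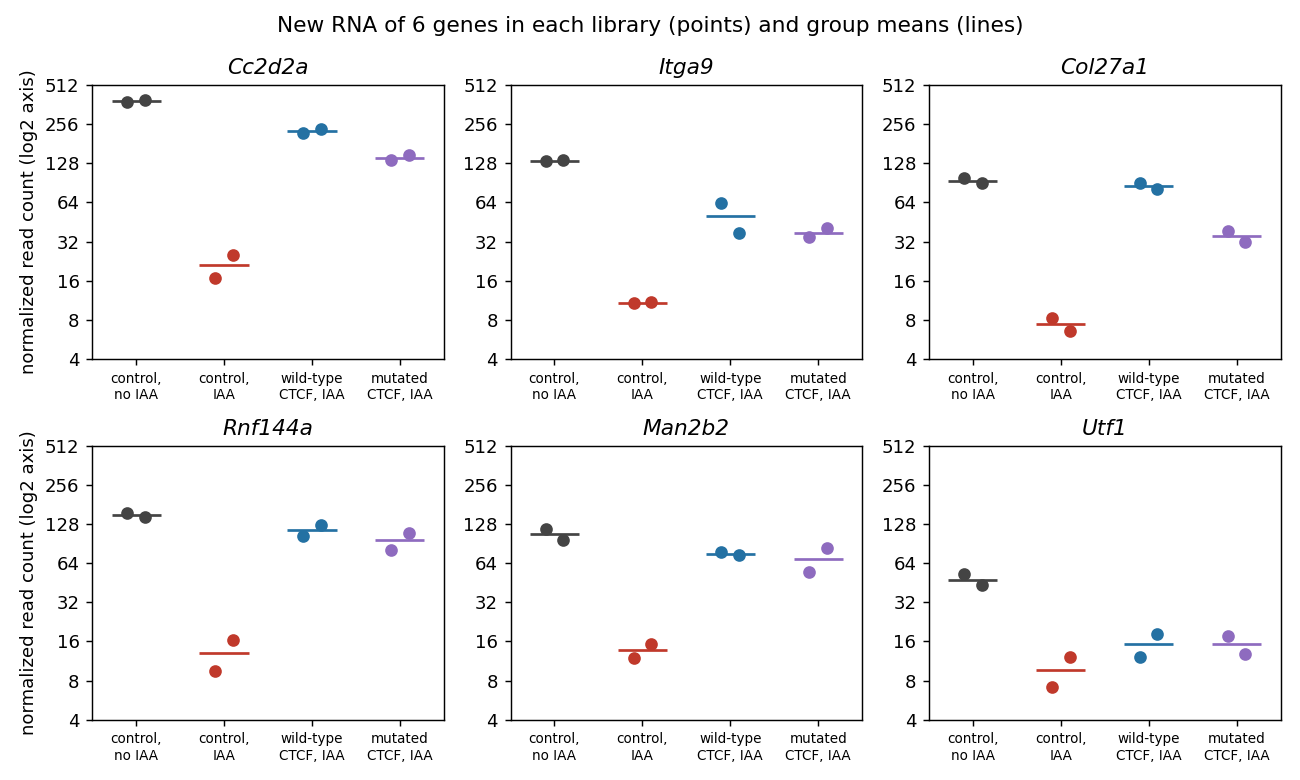
Normalised read count of each of the 6 genes (vertical log2 axes, 1 panel per gene) in the 8 libraries, grouped on the horizontal axis as control without IAA, control with IAA, wild-type CTCF with IAA and mutated CTCF with IAA. Points are libraries (2 per group) and lines are group means. In every panel both untreated libraries lie above and both control IAA libraries lie below all others, for Utf1 only just (12.1 against 12.2). The choice of the genes on these control libraries favours that order.

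**Figure D2:**
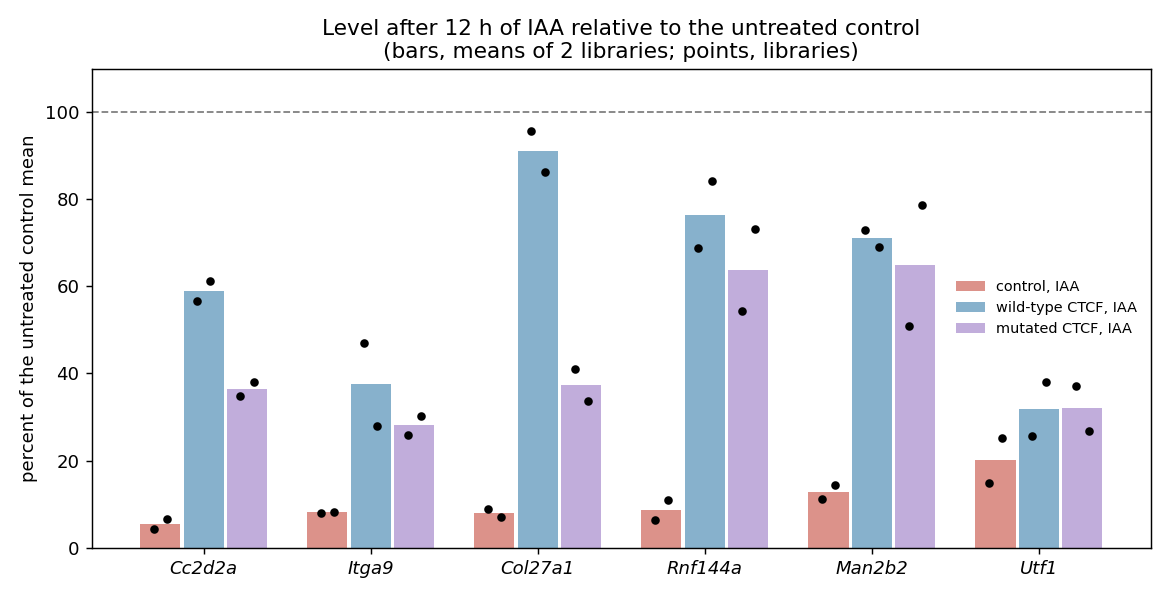
Each library of the 3 IAA groups as a percent of the mean of the untreated libraries, by gene. With wild-type CTCF the gene means run from 31.8% for Utf1 to 91.0% for Col27a1, and with mutated CTCF from 28.1% for Itga9 to 64.8% for Man2b2.

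Across the 6 genes, the median share of the untreated level was 8.39% in the control line with IAA (range 5.43% to 20.1%), 65.0% in the wild-type line (31.8% to 91.0%) and 36.9% in the mutated line (28.1% to 64.8%). The order of the group means was untreated, wild-type, mutated, IAA in 5 of the 6, and for Utf1 the rescue lines were level. The choice of the members favours untreated at the top and IAA at the bottom, and how many of all genes show this order was not counted. The neighbours in that order that overlapped were wild-type and mutated CTCF for Itga9, Rnf144a, Man2b2 and Utf1. These shares all use the untreated libraries, so they share their error. For scale, 23 other tested genes fell with IAA by at least as much as Utf1 and had a mean at least as high, and their median share was 16.5% with IAA, 60.5% with wild-type (quartiles 49.3% and 70.6%) and 42.6% with mutated CTCF (quartiles 34.1% and 46.5%). Against those 23 genes Col27a1 stood at percentile 95.7 with wild-type but 39.1 with mutated CTCF, Rnf144a at 78.3 and 95.7, and Man2b2 at 73.9 and 95.7, while Cc2d2a stood at 47.8 and 34.8, Itga9 at 13.0 with both and Utf1 at 13.0 and 17.4. The mean that set the cut was over all 8 libraries, so it includes the rescue libraries being ranked. Genes that stayed low there were less likely to enter, and Utf1 lies at the limit of both cuts by definition.

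The comparison of mutated with wild-type CTCF was tested in the limma fit over all 15818 genes. The stated rule used the control libraries only, but the genes were also described as regained, which rests on the rescue libraries, so the comparison is not wholly independent of the choice. Col27a1 was 2.44-fold higher with wild-type than with mutated CTCF (mean values 85.7 ± 6.2 and 35.1 ± 5.0, SD, n = 2 each), a log2 difference of -1.27 for mutated minus wild-type (SE 0.23, 95% confidence interval -1.73 to -0.80, adjusted p = 2.8e-05). Cc2d2a was 1.61-fold higher with wild-type CTCF (227 ± 13 and 141 ± 8.9), a log2 difference of -0.69 (SE 0.15, interval -0.98 to -0.39, adjusted p = 0.0003). Both were lower in each mutated library than in each wild-type library. How many of all genes separate in this way was not counted. Without the mean-variance trend of the limma fit the adjusted p of Cc2d2a was 0.053, and over all alternatives it ran from 3.6e-06 to 0.053 with the same direction; that of Col27a1 ran from 8.1e-07 to 0.005.

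The other members did not pass the test, and their intervals leave room for differences of either direction. Itga9 had a log2 difference of -0.37 (SE 0.23, interval -0.84 to 0.11, adjusted p = 0.23 in limma), and without the second wild-type replicate it was -0.74 with adjusted p = 0.037, so this value rests on a single library. Rnf144a had -0.27 (SE 0.20, interval -0.68 to 0.14, adjusted p = 0.32), and its value was -0.056 without the first and -0.48 without the second mutated replicate. Man2b2 had -0.16 (SE 0.21, interval -0.60 to 0.27, adjusted p = 0.59) and turned to 0.15 without the first mutated replicate. Utf1 had 0.02 (SE 0.33, interval -0.65 to 0.69, adjusted p = 0.97), and its sign turned when either the first mutated or the first wild-type replicate was left out. In all, 2 of the 6 genes were called, both lower with mutated CTCF, where 34.7% of all tested genes were called and 18.4% were called lower; the share called among the members is near the background. By value 5 of 6 were lower with mutated CTCF, with a median log2 difference of -0.32 against -0.0087 over all genes. Of the 23 other genes that fell at least as much as Utf1, 15 were called lower and 3 higher, with a median of -0.57. They were also picked on the control libraries, and their fall was less deep. Their median share of the untreated level with IAA was 16.5%, against 8.39% for the members.

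**Figure D3:**
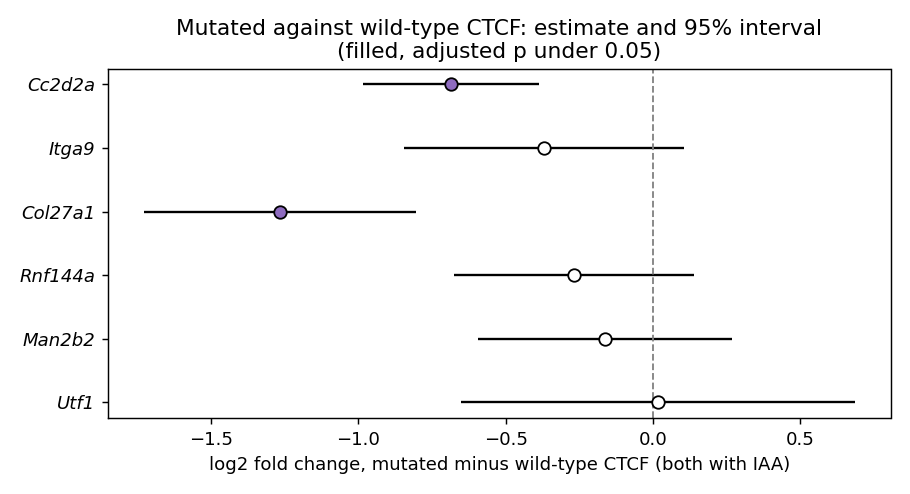
Log2 difference of mutated minus wild-type CTCF for each of the 6 genes, with its 95% confidence interval from the limma fit; the line at 0 marks no difference. The intervals of Cc2d2a (-0.98 to -0.39) and Col27a1 (-1.73 to -0.80) lie below 0, and those of the other 4 genes include it.

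The genes most like each member were found by the root mean square difference of log2(value + 1), centred on each gene, over the 8 libraries, among tested genes other than the 6 members with a mean of at least 50. This is a description of patterns that the choice of members already shaped. Snhg17, a snoRNA host transcript, was the nearest of these to Cc2d2a (0.45), Col27a1 (0.38), Rnf144a (0.33) and Man2b2 (0.22). Its normalised read counts were 1340 and 1315 without IAA, 154 and 180 with IAA, 953 and 983 with wild-type CTCF and 732 and 694 with mutated CTCF, and by this measure its pattern was closest to that of Man2b2. Det1 was the second nearest non-member to Cc2d2a (0.51), Rnf144a (0.45) and Man2b2 (0.29), and Adprhl2 to Col27a1 (0.44).

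Itga9 and Utf1 had other nearest genes. For Itga9 these were Mob3b (0.33) and Elavl4 (0.36), a neuronal RNA-binding protein gene, and for Utf1 Igfbp7 (0.32), which encodes a secreted protein that binds insulin-like growth factors, and Fam171a1 (0.38). Igfbp7 had 326 and 341 normalised reads without IAA, 65.5 and 57.2 with IAA, 106 and 98.4 with wild-type CTCF and 111 and 115 with mutated CTCF, so it too stayed low in both rescue lines. Among the members themselves Rnf144a and Man2b2 were the closest pair, at 0.31, Cc2d2a was nearer to Rnf144a (0.32) and to Col27a1 (0.40) than to Snhg17, and Utf1 lay 0.69 to 1.05 from each of the others.

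Genes around the members were not chosen by the rule and were read from the same fit. Within 500 kb of a member's start 47 genes were listed and 43 were tested, of which 16 (37.2%) were called with IAA, 8 higher and 8 lower, where 37.7% of all tested genes were called, 19.4% higher and 18.4% lower. The share near the members was thus that of the background, and the median log2 difference of these neighbours was 0.011, or -0.040 with the same total per library. By member, 4 of 7 tested neighbours were called for Cc2d2a (3 higher, 1 lower) and 4 of 8 for Itga9 (3 higher, 1 lower). For Col27a1 3 of 5 were called (all lower), for Man2b2 3 of 14 (2 higher, 1 lower) and for Utf1 2 of 9 (0 higher, 2 lower). Rnf144a had no listed neighbour within that distance. With mutated against wild-type CTCF 14 of the 43 were called (32.6%), 9 higher and 5 lower, beside 34.7% over all genes, 16.3% higher and 18.4% lower. By member these were 2 higher and 1 lower for Cc2d2a, 1 and 3 for Itga9, 2 and 0 for Man2b2 and 1 and 1 for Utf1. Near Col27a1 they were 3 and 0, the opposite sign to Col27a1 itself. When the mean-variance trend was left out 8 were called, where 20.6% of all genes were. Without the first untreated replicate 9 neighbours were called with IAA, where 27.9% of all tested genes were, and without the second 10, where 27.1% were.

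Of the called neighbours, 3 differed by at least 1 on the log2 scale with IAA. Gm16201, a noncoding transcript whose start lies 6.61 kb downstream of the Utf1 start on the same strand, had 43.5 and 33.6 normalised reads without IAA, 5.96 and 11.0 with IAA, 13.1 and 7.49 with wild-type CTCF and 12.5 and 19.8 with mutated CTCF. It fell by 2.10 on the log2 scale with IAA (SE 0.36, adjusted p = 1.1e-05 in limma), stayed low in both rescue lines as Utf1 did, and had a mutated minus wild-type difference of 0.62 (SE 0.36, adjusted p = 0.19). The other 2 rose. Bst1, which encodes a cell-surface enzyme that makes cyclic ADP-ribose, lies 157 kb downstream of Cc2d2a and went from 39.3 and 42.2 to 96.5 and 95.7 with IAA, a log2 difference of 1.22 (SE 0.16, adjusted p = 9.6e-08), with 111 and 86.7 in the wild-type and 121 and 130.5 in the mutated line. Gm1043, 255 kb upstream of Man2b2, went from 18.4 and 19.0 to 46.5 and 36.3 (1.10, SE 0.23, adjusted p = 0.0002), with 43.7 and 47.1 in the wild-type and 51.2 and 53.4 in the mutated line. In both rescue lines Bst1 and Gm1043 were above every untreated library.

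The nearest tested genes on either side of each member were also read from the fit; downstream of Utf1 this is Gm16201, described above. For Cc2d2a these were Gm7854, 427 kb upstream, at 0.10 (adjusted p = 0.84 in limma), and Gm43182, 119.9 kb downstream, at -0.19 (adjusted p = 0.64). Man2b2 lies between Ppp2r2c, 37.9 kb upstream, at -0.31 with IAA (adjusted p = 3.3e-05 in limma), and Mrfap1, 33.9 kb downstream, at 0.29 (adjusted p = 0.0056). Itga9 has Golga4 100.4 kb upstream, at -0.02, and Ctdspl 320 kb downstream, at 0.45 (adjusted p = 0.043). For Col27a1 these were Zfp618, at 0.63 (adjusted p = 0.17), and Akna, at 0.06. The nearest tested gene to Rnf144a was Gm9866, 745 kb upstream, at -0.65 (adjusted p = 0.028), and none was tested downstream within 1000 kb. Gm9866 was higher with mutated than with wild-type CTCF, at 0.90 (adjusted p = 0.0029). Upstream of Utf1, Nkx6-2, a homeobox gene 361 kb away, was at 0.22 with IAA (adjusted p = 0.62) and was lower with mutated than with wild-type CTCF, at -1.39 (adjusted p = 0.00068).

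**Figure D4:**
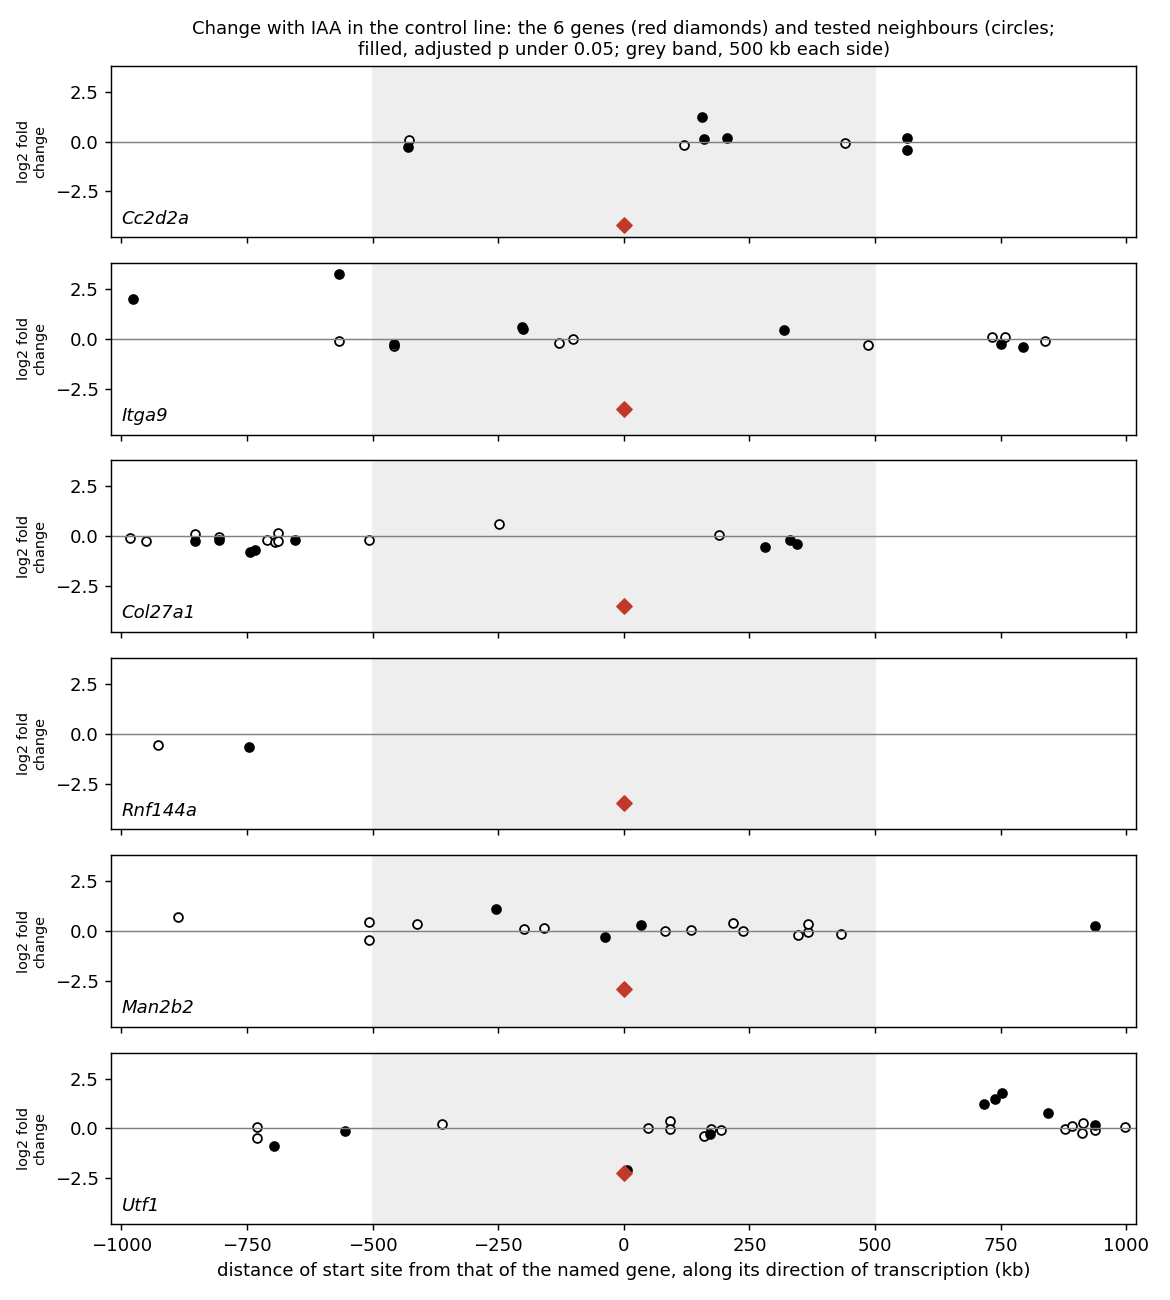
Log2 difference with IAA in the control line (vertical axis) of the tested genes around each member against the distance of their start from the member's start in kb, with upstream to the left (horizontal axis, 1 panel per member). Filled points passed the limma test; the members (diamonds at distance 0) lie between -4.17 and -2.24, the values that chose them, and Gm16201 (-2.10) lies next to Utf1.

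The related genes of each member were taken from lists of its family or pathway. Together 86 of 105 list genes were tested; 47 (54.7%) were called with IAA, 17 higher and 30 lower, beside 37.7% called over all genes, 19.4% higher and 18.4% lower. Between mutated and wild-type CTCF 42 (48.8%) were called, 14 higher and 28 lower, beside 34.7% over all genes, 16.3% higher and 18.4% lower. Without the mean-variance trend 21 of the 86 were called, 6 higher and 15 lower, beside 20.6% over all genes, so the count then was near the background. Of the 5967 genes called with IAA overall 51.3% were higher, and 38.5% when libraries were set to the same total.

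Of the transition zone genes that work with Cc2d2a at the ciliary gate, 21 of 21 were tested, and with IAA 10 fell and 1 rose, with a median log2 difference of -0.21. Invs, which encodes inversin, a protein of the proximal cilium, was the gene that rose, from 477 ± 19 to 620.2 ± 30 normalised reads (SD, n = 2; log2 difference 0.38, SE 0.071, adjusted p = 4.2e-05 in limma). With mutated against wild-type CTCF 23.8% were called, fewer than the 34.7% over all genes, with a median of 0.10. The calls were 5 higher and 0 lower, the opposite sign to Cc2d2a. The highest was Tmem67, a transmembrane component of the gate, at 351 ± 8.0 against 263 ± 12 (0.41, SE 0.090, adjusted p = 0.00035).

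Of the integrin genes 15 of 24 were tested; with IAA 2 rose and 3 fell, and with mutated against wild-type CTCF 2 were higher and 5 lower. Without the mean-variance trend the calls in the latter comparison went to 0 higher and 1 lower. Itga8, the alpha subunit of the nephronectin receptor, fell with IAA from 42.4 ± 7.5 to 9.67 ± 1.9 (-2.02, SE 0.26, adjusted p = 2.8e-08 in limma), and its means were 51.9 ± 6.9 with wild-type and 37.6 ± 2.9 with mutated CTCF. The mean of Itga8 with wild-type CTCF was above its untreated mean, whereas Itga9 reached 37.5% of its own. Itgae had the highest value of those that rose, at 0.50 (SE 0.16, adjusted p = 0.014). Between the rescue lines Itga10 was lowest with mutated CTCF, at 50.9 ± 7.7 against 94.97 ± 9.4 (-0.89, SE 0.18, adjusted p = 0.00012), and Itga6, a laminin receptor subunit, highest, at 0.18 (SE 0.041, adjusted p = 0.00055).

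Of the fibrillar collagens and collagen-modifying enzymes 11 of 20 were tested. With IAA 4 rose and 1 fell, the opposite balance to the fall for which Col27a1 was chosen. P4ha2, a subunit of the prolyl hydroxylase of collagen, had the highest value, from 6.77 ± 2.3 to 22.4 ± 2.1 (1.62, SE 0.35, adjusted p = 0.0003 in limma), and Plod2, a lysyl hydroxylase, fell by 0.30 (SE 0.051, adjusted p = 7.9e-06). With mutated against wild-type CTCF 9 of the 11 were lower and 0 higher, with a median of -0.60, which is the direction of Col27a1. Bmp1, the protease that removes procollagen C-propeptides, was the lowest, at 8.66 ± 1.1 against 24.4 ± 1.3 (-1.40, SE 0.33, adjusted p = 0.00087), and P4hb was the least lowered of the 9, at -0.25. The trophoblast, mesoderm and neural marker sums were also lower with mutated than with wild-type CTCF. Their part in the collagen calls was not tested.

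Of the RBR ubiquitin ligases 13 of 14 were tested. With IAA 4 rose and 3 fell, from Rnf144b, the closest relative of Rnf144a, at 0.59 (432 ± 5.6 to 651 ± 14, SE 0.074, adjusted p = 1.7e-08 in limma), to Rnf14 at -0.34 (SE 0.073, adjusted p = 0.00023). The differences of Rnf144a and Rnf144b thus had opposite signs, that of Rnf144a being the fall for which it was chosen. With mutated against wild-type CTCF 1 was higher, Rnf19a at 0.19 (SE 0.055, adjusted p = 0.0063), and 4 were lower, with Rnf144b the lowest at -0.50 (SE 0.074, adjusted p = 8.6e-07). Without the mean-variance trend 0 were higher and 4 lower.

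Of the mannosidases 11 of 11 were tested, and with IAA 3 rose and 6 fell, or 2 and 8 with the same total per library. Without the mean-variance trend 0 were called higher, Man1b1 included, and 5 lower. Man2a2, a Golgi mannosidase of N-glycan processing, fell from 103 ± 4.4 to 54.1 ± 7.5 (-0.92, SE 0.18, adjusted p = 6.3e-05 in limma), and Man1b1, which trims glycans in glycoprotein quality control, was the highest, at 0.41 (SE 0.082, adjusted p = 7.9e-05). With mutated against wild-type CTCF 1 was higher, Manea at 0.23 (SE 0.058, adjusted p = 0.0018), and 3 were lower, with Man1a lowest at 153 ± 21 against 283 ± 5.5 (-0.89, SE 0.11, adjusted p = 2.1e-08).

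Of the pluripotency factors 15 of 15 were tested, and with IAA 3 rose and 7 fell. None fell by as much as Utf1, which was chosen for its fall. Nr0b1, an orphan nuclear receptor, was lowest, from 538 ± 31 to 384 ± 25 (-0.49, SE 0.079, adjusted p = 3.5e-06 in limma), and Tfcp2l1, a transcription factor of the naive state, was highest, at 0.47 (SE 0.033, adjusted p = 5.2e-15). With mutated against wild-type CTCF 5 were higher and 7 lower. Without the mean-variance trend these counts were 1 and 2, and those with IAA 2 and 4. Lin28a, an RNA-binding protein that blocks let-7 maturation, was lowest at 167 ± 7.8 against 303 ± 19 (-0.85, SE 0.11, adjusted p = 5.7e-08), and Nr0b1 highest at 0.30 (SE 0.079, adjusted p = 0.0028).

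**Figure D5:**
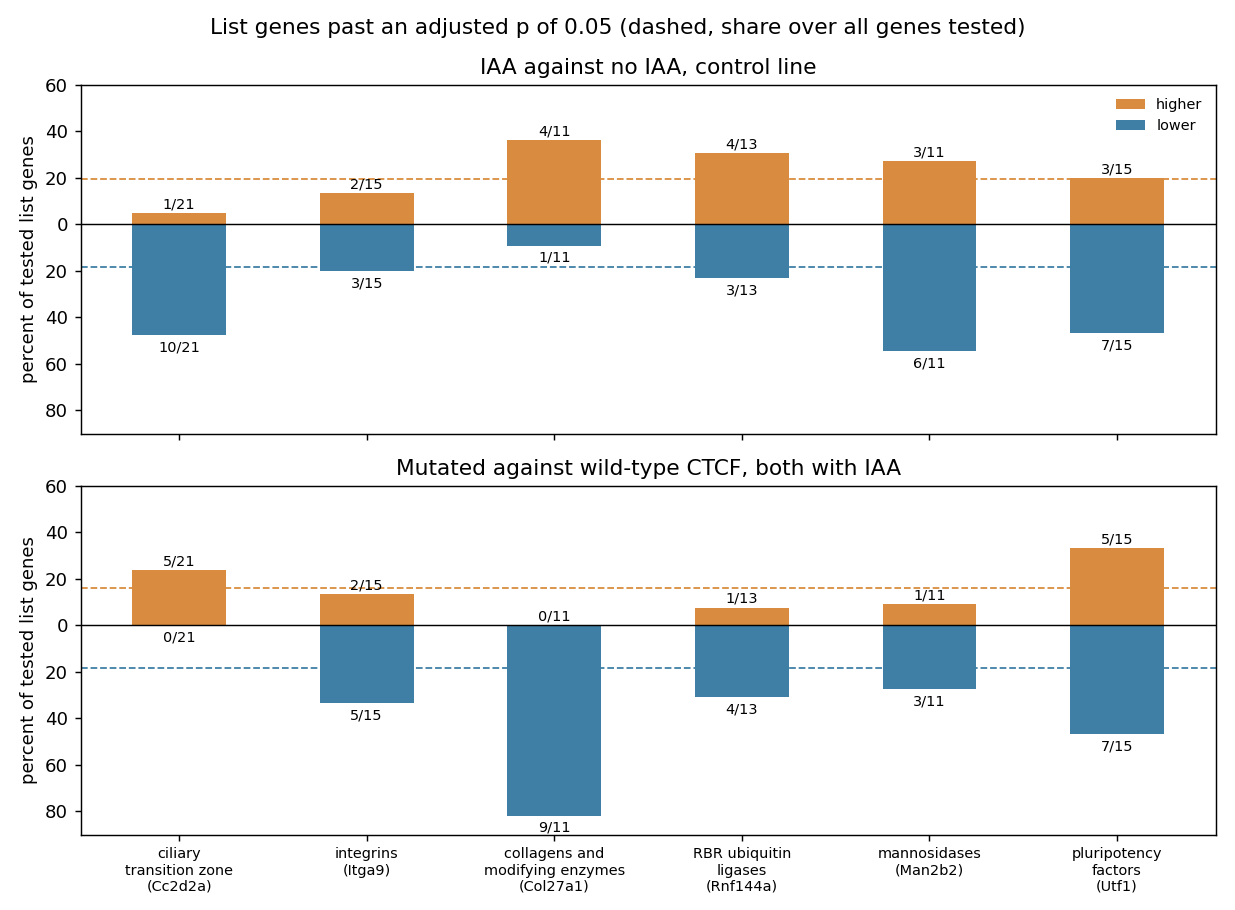
Percent of the tested genes of each list that passed the limma test higher (bars upward) or lower (bars downward), with IAA in the control line (upper panel) and with mutated against wild-type CTCF (lower panel); dashed lines give the shares over all tested genes, and the counts stand at the bars. The transition zone bar with IAA is mostly downward (10 of 21 genes lower), and so is the collagen bar with mutated CTCF (9 of 11 lower).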

How the data were processed

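The deposited table holds 1 signal value per gene and library: gene read counts that the authors divided by a factor per library. The submitters' processing notes name Trim Galore, STAR, featureCounts and DESeq2 with no versions, and the build mm10; the annotation release, counted feature and strand setting are not given in the sources used here. Dividing by the smallest step of each library gave whole reads for 100% of values (tolerance 0.001), from which depth was taken. Of 16940 gene identifiers 16917 matched GENCODE M21, which gave positions.

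Values plus a pseudocount of 1 were log2-transformed, genes with a mean under 10 over the 8 libraries were left out, and limma 3.58.1 (R 4.3.3) with a mean-variance trend was fitted with 1 coefficient per group. P-values were adjusted over the 15818 genes by Benjamini-Hochberg, with a threshold of 0.05. The fit was tested on simulated counts for mutated against wild-type CTCF. Of 50 genes changed at each size it recovered 54% at 1.5-fold, 92% at 2-fold, 98% at 4-fold and 100% at 8-fold. It called 16 of 15618 unchanged genes. Alternatives were other pseudocounts, filters and scalings, no trend, a replicate block, edgeR 4.0.16 and DESeq2 1.42.0 on the recovered reads, and each replicate left out. edgeR's quasi-likelihood test called 6517 genes with IAA and 6094 with mutated against wild-type CTCF.

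Named genes were every member, the highest and lowest called gene of each list (1 of them is not reported here), the nearest tested neighbours and those called at an absolute log2 difference of at least 1, and the 2 genes most like each member. The members, lists and tests were chosen with earlier results of these data known.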

Additional observations from a re-analysis of the deposited data

Results flagged for a closer look

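The lines with wild-type and with mutated CTCF differed, by the limma test of the difference, for 2 of the 6 genes. Col27a1 was at -1.27 on the log2 scale for mutated minus wild-type CTCF and Cc2d2a at -0.69. The share of genes called over the whole table was 34.7%, so the share among the members was near the background. Without the mean-variance trend of limma Cc2d2a did not pass (adjusted p = 0.053).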

How the results depend on the processing

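Most values kept their direction and their side of the threshold under the alternatives. The log2 difference of mutated minus wild-type CTCF for Cc2d2a was -0.69 with adjusted p = 0.053 without the mean-variance trend of limma, and ran from -0.75 to -0.62 with each replicate left out; Col27a1 ran from -1.41 to -1.13 and Rnf144a from -0.48 to -0.056. Itga9 ran from -0.74 to -0.0021, and its -0.74, without wild-type replicate 2, passed the threshold (adjusted p = 0.037). Man2b2 ran from -0.47 to 0.15, and its 0.15 without mutated replicate 1 had the other sign. Utf1 ran from -0.25 to 0.28, at -0.20 without mutated replicate 1 and -0.25 without wild-type replicate 1; a filter at a mean of 50 left it no value.

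Neighbours called with IAA were 10 by DESeq2, 9 within 250 kb, 36 within 1000 kb and 9 to 16 with a replicate left out; with mutated against wild-type CTCF they were 8 without the trend, 8 within 250 kb, 30 within 1000 kb and 10 to 14. List genes called in the latter comparison were 21 without the trend and 31 to 42 with a replicate left out. Over all genes 5967 were called with IAA, 3946 without the trend and 3968 by DESeq2, and 5489, 3263 and 3447 with mutated against wild-type CTCF. The median share of the untreated level was 8.29% to 9.61% with IAA when a replicate was left out; with wild-type CTCF it was 62.5% with median-of-ratios scaling, 61.3% with the same total and 62.0% to 68.4% with a replicate left out. Beyond these, the causes were not tested.

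Replicate differences over genes were not correlated between groups (mean correlation 0.0037, 6 pairs). Such a correlation misses a shift common to all genes, so it cannot show whether the numbers pair the samples. Replicate 2 had the higher median-of-ratios factor in every group. In the control line these factors were 0.978 and 0.997 without IAA and 0.976 and 0.996 with IAA. They were 1.007 and 1.044 with wild-type and 1.007 and 1.036 with mutated CTCF. A replicate block changed no member's call (Col27a1 -1.27, Cc2d2a -0.69) and moved the count for mutated against wild-type CTCF from 5489 to 5981. With 6 to 23 reads per gene in each IAA library, counting error limits the members' values there.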

Other observations

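Within 1000 kb of a member's start 36 of 88 tested genes were called with IAA in the control line (40.9%, beside 37.7% over all genes), 17 higher and 19 lower, so these neighbours leaned neither with nor against the members. Beyond 500 kb, Pwwp2b near Utf1 fell by 0.86 on the log2 scale (adjusted p = 0.031 in limma) and Wdr31 near Col27a1 by 0.80 (adjusted p = 7.9e-07). The genes named here were chosen after their values were seen. Zcwpw2, an annotated pseudogene 566 kb upstream of Itga9, had 133 and 166 normalised reads without IAA, 1402 and 1446 with IAA, 810.4 and 784 with wild-type CTCF and 1067 and 1051 with mutated CTCF. It rose by 3.25 on the log2 scale with IAA (SE 0.075, adjusted p = 4.3e-31 in limma) and stayed above both untreated libraries in both rescue lines. Rbms3, an RNA-binding protein gene 977 kb upstream of Itga9, went from 23.4 and 20.7 to 94.1 and 86.9 (1.99, SE 0.21, adjusted p = 1.8e-10), with 47.2 and 52.4 in the wild-type and 53.3 and 66.2 in the mutated line.

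The olfactory receptor genes Olfr539, Olfr45 and Olfr541, 716 to 753 kb downstream of Utf1, all rose with IAA, by 1.24, 1.49 and 1.78 on the log2 scale (SE 0.084, 0.13 and 0.35, adjusted p = 1.3e-15, 2.3e-12 and 8.9e-05 in limma). Olfr539 had 206 and 217 normalised reads without IAA, 512 and 489 with IAA, 428 and 448 with wild-type CTCF and 364 and 385 with mutated CTCF. Olfactory receptors are a multigene family, and how reads shared between its members were counted is not given in the sources used here, so these values are uncertain.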
